A study of Mus musculus with 58 samples.

Results

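The genes described here encode the nuclear part of the oxidative phosphorylation system of mouse mitochondria. They were taken by symbol: every row of the count table starting with Ndufa, Ndufb, Ndufc, Ndufs, Ndufv, Uqcr, Cox4 to Cox8 or Atp5, and Sdha, Sdhb, Sdhc, Sdhd and Cyc1. That gave 90 of 24077 genes: 36 subunits of complex I, 7 complex I assembly factors (the Ndufaf genes), 4 subunits of complex II, 9 of complex III, 20 of complex IV and 14 of complex V. Ndufa4 and Ndufa4l2 were counted with complex IV, where the protein of Ndufa4 is known to sit. Genes entered by symbol alone, but the set was chosen with earlier results of these data known.

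Polyadenylated RNA was sequenced at 3 stages: the fully grown oocyte (FGO), the morula, and the extraembryonic ectoderm (ExE), which is trophoblast next to the early epiblast. FGO of strain B6.129 gave 2 libraries with the genotype Pcgf1/6 double knockout (KO) and 2 wild-type libraries (CTR). Morulae of the cross B6.129 x PWK gave 2 libraries labelled as double maternal knockout of Pcgf1/6 (matKO) and 2 wild-type libraries. ExE of the same cross gave 4 matKO and 2 wild-type libraries. The matKO and CTR embryos share this hybrid background. The deleting allele, its driver, the number of pooled oocytes or embryos behind a library and the sex of the embryos were not stated in the labels. Nothing in the labels says that libraries came from separate animals, so p-values measure the spread between these libraries, which may be technical.

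Pcgf1 and Pcgf6 encode subunits of variant Polycomb repressive complex 1, which ubiquitinates histone H2A. Oxidative phosphorylation moves electrons from NADH (complex I) and succinate (complex II) through complex III and cytochrome c to oxygen at complex IV, and complex V uses the resulting proton gradient to make ATP. Most subunits are nuclear-encoded and imported, and several subunits of complex IV have a broadly used form and a form known from muscle, lung or testis. Oocytes hold many mitochondria that the embryo inherits, and the early embryo relies on pyruvate oxidation.

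The libraries held 19805264 to 26364085 counts in FGO. Morula and ExE columns count only reads that could be assigned to the maternal or the paternal genome. Their sums were 1299715 to 1685510 in morulae and 3397585 to 4361832 in ExE. Levels are given as CPM, each gene's counts scaled to a fixed library total, without the scaling factors used in the tests. Pcgf1 had 34.9 and 22.8 CPM in FGO KO, against 1406 and 1100 CPM in FGO CTR, and the fitted log2 change was −5.56. The adjusted p was 1.96e-05. Pcgf6 had 177 and 220 CPM in KO, against 396 and 429 CPM in CTR (log2 −1.14, adjusted p = 0.0102). Pcgf1 had at most 4 assigned reads in any embryo library and could not check the matKO label. Pcgf6 had 199, 177, 208 and 175 CPM in ExE matKO, against 296 and 265 CPM in ExE CTR (log2 −0.59, adjusted p = 0.133). In morulae it had 215 and 199.6 CPM in matKO, against 198 and 239 CPM in CTR (log2 −0.04, adjusted p = 0.915), and the morula groups overlapped. In ExE, matKO replicate 3 stood apart: 35.1% of its autosomal reads were maternal, against 50.5 to 51.5% in the other 9 embryo libraries. All 10 oocyte markers were detected in every FGO library, at a summed 16238 to 21037 CPM in KO and 21195 to 21743 CPM in CTR. Summed granulosa and cumulus markers were 97.0 to 180 CPM in KO and 100 to 101 CPM in CTR. Trophectoderm markers summed to 3386 to 6016 CPM in ExE matKO, against 8201 to 8684 CPM in ExE CTR. The median of these 8 markers went the other way, at 237 to 286 CPM in ExE matKO, against 204 to 205 CPM in ExE CTR. Markers of ExE and trophoblast stem cells summed to 1083 to 1380 CPM in ExE matKO, against 971 to 1012 CPM in ExE CTR. Epiblast markers summed to 154 to 289 CPM in ExE matKO, against 139 to 154 CPM in ExE CTR, and visceral endoderm markers to 8.64 to 29.6 CPM, against 2.29 to 4.27 CPM. In morulae trophectoderm markers summed to 1155 to 1273 CPM in matKO, against 1713 to 1887 CPM in CTR. The part of these marker differences in the results below was not tested. In bulk RNA, fewer cells of a type and less RNA per cell cannot be told apart.

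In oocytes, 2 of the 90 genes rose in KO and none fell, and the respiratory chain as a group took about the same share of counts. That share was 1.89 and 1.78% in KO, against 1.84 and 1.81% in CTR, and these ranges overlap. Cox8c, known as a testis form of the small complex IV subunit 8, rose by 2.41 on the log2 scale, and Atp5g3, 1 of 3 genes for the membrane ring subunit c of complex V, rose by 0.88. edgeR's quasi-likelihood test was fitted to all genes, with Benjamini-Hochberg adjustment and calls at an adjusted p under 0.05. It called 972 of 13459 genes, or 7.22%, with 5.35% higher and 1.87% lower. Of 88 genes of the set tested, 2 were called, both higher, which is 2.27% and below the background of 5.35%. The background for lower genes was 1.87%, and no gene of the set was called lower. Cox7b2 and Cox8b did not pass the filter on low counts. DESeq2 called 1208 genes of the table and 3 of the set.

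Cox8c (chromosome 12, 102899306 to 102900534, mm10) had 513 and 404 counts in KO. Its level was 23.3 and 20.4 CPM in KO, against 3.03 and 4.63 CPM in CTR. Both KO libraries lay above both CTR libraries. The log2 change was 2.41 (SE 0.26, adjusted p = 0.00160 by edgeR). Atp5g3 (chromosome 2, 73908447 to 73912464) had 146 and 134 CPM in KO, against 71.1 and 71.1 CPM in CTR. Again the groups were apart, with log2 0.88 (SE 0.14, adjusted p = 0.00773 by edgeR). Over the alternative settings the adjusted p ranged up to 0.00392 for Cox8c and 0.0433 for Atp5g3, so both kept their calls.

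The other genes for subunit c did not pass the test in oocytes. Atp5g1 had 267 and 203 CPM in KO, against 238 and 216 CPM in CTR (log2 −0.06, SE 0.15, adjusted p = 0.872). Atp5g2 had 9.22 and 9.59 CPM in KO, against 9.63 and 10.9 CPM in CTR (log2 −0.22, SE 0.23). The 3 genes are known to encode the same mature protein behind different import sequences. Their difference in change was not itself tested.

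Stretches before the transcript starts of Atp5g3, Atp5g1 and Cox7b2 were searched for sequences that known partners of PCGF6 bind. Cox8c, the other gene called in oocytes, had no promoter window and could not be searched. The MAX and MGA proteins of the PCGF6 complex are known to bind the E-box CACGTG, and its E2F6 subunit the E2F-type sequence GCGGGAA. Both strands of the 250 bases before each RefSeq start (GRCm38.p6, the mm10 build) were searched, and capitals mark a match. The first stretch shows the E-box of Atp5g3, 238 bases before the start, and the second the E2F-type match of Atp5g1, 178 bases before it. The Atp5g3 window lies inside the annotated gene, and the printed Atp5g1 stretch lies outside it. The third is the whole window of Cox7b2, the gene with the largest fitted rise in morulae.
Atp5g3, minus strand of chr2:73911547-73911576: acccctgcctggCACGTGcaaggagcgagg
Atp5g1, minus strand of chr11:96075792-96075821: atccgcaaggagGCGGGAAttgccacgaag
Cox7b2, minus strand of chr5:71548206-71548455: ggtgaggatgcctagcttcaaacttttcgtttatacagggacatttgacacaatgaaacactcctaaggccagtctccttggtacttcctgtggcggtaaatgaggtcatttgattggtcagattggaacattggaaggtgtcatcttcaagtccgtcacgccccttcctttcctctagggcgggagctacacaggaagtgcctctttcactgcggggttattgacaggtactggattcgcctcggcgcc

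Atp5g1, which did not pass the test, also holds an E-box, 44 bases before its start, and the Cox7b2 window holds neither motif. An E-box occurred in 6.02% of all 32851 windows and in 7.69% of the 78 windows of 73 matched genes of the set. The E2F-type sequence occurred in 3.82% of all windows and in 7.69% of those of the set. Windows of the set held a median of 14 CpG, against 6 over all windows. The E-box was found at Atp5g1, Atp5g3, Atp5l, Ndufa7 and Ndufv1, and the E2F-type sequence at Atp5g1, Atp5g2, Atp5j, Atp5j2, Cox5b and Ndufs3. The matches describe letters only, and the shares of the set rest on 6 windows for each of these motifs.

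**Figure D1:**
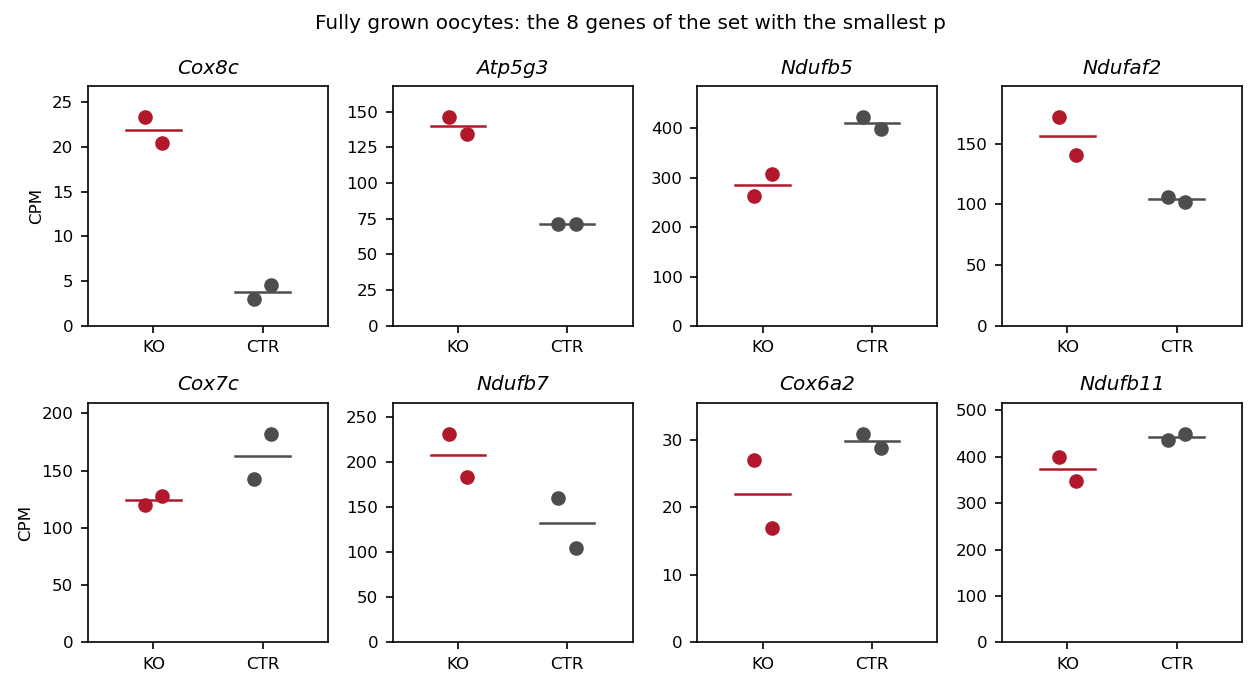
Level (CPM) in each oocyte library of the 8 genes of the set with the smallest p, with KO left of CTR; points are libraries and lines are means of 2. Cox8c and Atp5g3 passed the adjusted threshold, and in Cox8c the KO libraries had 23.3 and 20.4 CPM, against 3.03 and 4.63 CPM in CTR.

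With Cox8c and Atp5g3, 10 of 88 genes of the set had an unadjusted p under 0.05 in oocytes, a smaller share than the 21.5% of all genes. The other 8 did not pass. Ndufb5, a membrane-arm subunit of complex I, had 264 and 307 CPM in KO, against 423 and 400 CPM in CTR (log2 −0.61, SE 0.17, adjusted p = 0.0730 by edgeR). Ndufaf2, an assembly factor, had 172 and 140 CPM in KO, against 106 and 102 CPM in CTR (log2 0.48, SE 0.14, adjusted p = 0.0741). Both pairs of groups were apart. Cox7c and Cox6a2 of complex IV, Ndufb7 and Ndufb11 of complex I, the assembly factor Ndufaf3, and Uqcrb of complex III had fitted values between −0.56 and 0.54, all with adjusted p of 0.154 to 0.229. Cox7c had 120 and 128 CPM in KO, against 143 and 182 CPM in CTR, and Cox6a2, the muscle form of subunit 6a, had 27.04 and 17.0 CPM in KO, against 30.9 and 28.8 CPM in CTR. Ndufb7 had 232 and 184 CPM in KO, against 160 and 105 CPM in CTR.

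Across the set the fitted changes in oocytes leaned slightly below 0. Of 88 tested genes 65 were negative, with a median of −0.10, against a median of 0.004 over all genes. Without the TMM factors both medians moved up by about 0.1, to −0.000193 for the set and 0.11 for all genes, and the distance between them stayed. By complex, the medians lay between −0.12 (complex V) and −0.06 (assembly factors). KO and CTR values did not overlap for 39 of 88 genes of the set (44.3%), against 50.2% of all genes tested. Without KO replicate 1 the set's median was −0.00976, against −0.00439 over all genes, and without KO replicate 2 it was −0.18. The latter fit rests on KO replicate 1, whose oocyte markers summed to 16238 CPM, while replicate 2 had 21037 CPM. Granulosa and cumulus markers summed to 180 CPM in KO replicate 1 and 97.0 CPM in replicate 2. The part of this difference was not tested. Without KO replicate 2, 2029 genes of the table were called, 1078 higher and 951 lower, and 11 of the set, 3 higher and 8 lower. The lower ones were Atp5b, Cox7c, Ndufaf7, Atp5a1, Ndufb5, Ndufa4, Ndufa9 and Uqcrc2. Leaving out any other oocyte library gave 2 called genes of the set.

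Other genes of energy metabolism and of mitochondria were tested in oocytes, beside the background of 7.22% of all genes called. Of 174 tested genes in 6 lists (cytochrome c and electron entry, other assembly factors, biogenesis regulators, the tricarboxylic acid cycle with pyruvate dehydrogenase, glycolysis, the mitochondrial ribosome), 2 rose and 3 fell, and 3 of these 5 were among the 17 tested genes of glycolysis, which runs in the cytosol. The glycolytic enzymes Hk2 (hexokinase 2, log2 2.73, SE 0.43, adjusted p = 0.00867) and Tpi1 (0.92, SE 0.14, adjusted p = 0.00619) rose, and Pkm fell (−0.56, SE 0.14, adjusted p = 0.0447). Hk2 had 5.96 to 13.4 CPM in KO, against 0.986 to 1.67 CPM in CTR. Tpi1 had 188 to 218 CPM in KO, against 96.4 to 103 CPM in CTR. Surf1, which helps build complex IV, fell (−0.59, SE 0.14, adjusted p = 0.0362), and so did the ribosomal protein gene Mrpl9 (−1.04, SE 0.17, adjusted p = 0.00856). The 21 tested genes of the tricarboxylic acid cycle list gave no call, and 1 had an unadjusted p under 0.05.

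**Figure D2:**
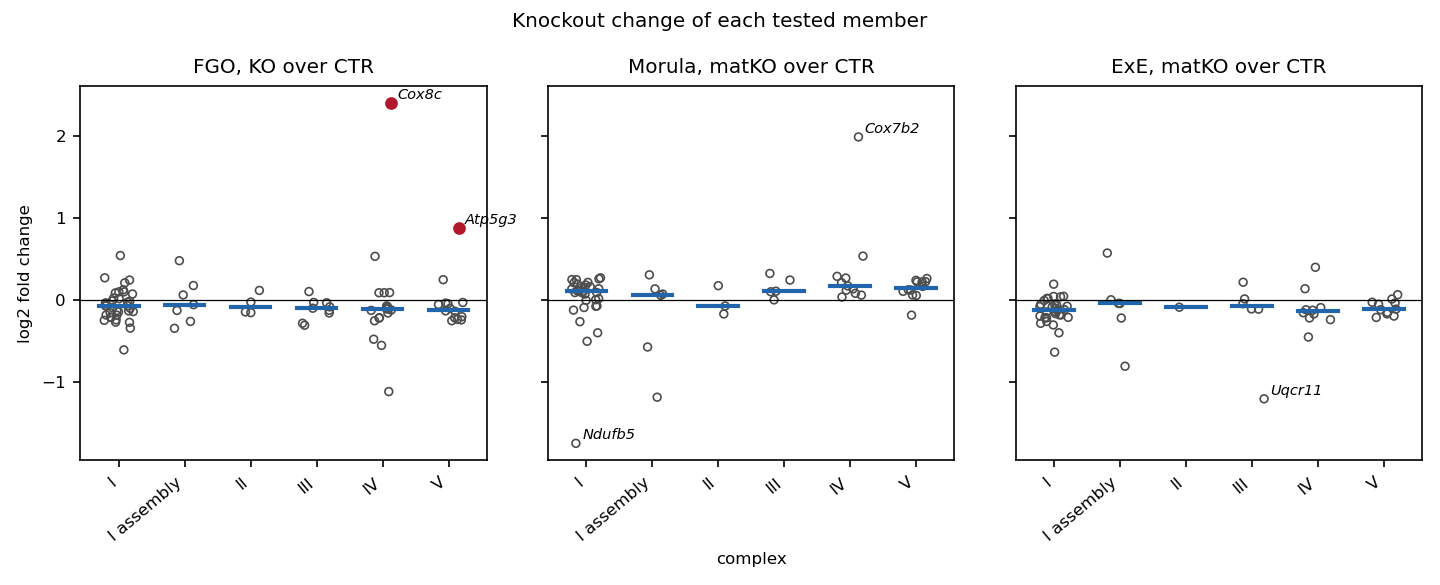
Fitted log2 fold change of each tested gene of the set, by complex, in oocytes (KO over CTR), morulae (matKO over CTR) and ExE (matKO over CTR); red points passed the adjusted threshold, blue lines are medians. Cox8c and Atp5g3 are the 2 called genes; Cox7b2, at 1.99 in morulae, is the largest uncalled rise.

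In morulae no gene of the set passed the test. edgeR called 12 of 9063 genes, or 0.132%, with 2 higher (0.0221%) and 10 lower (0.11%). With RLE (DESeq2's size factors) in place of TMM the split was 15 higher and 39 lower. Of 68 genes of the set tested, 0 were called. An unadjusted p under 0.05 was found for 8 (5 higher, 3 lower), and for 19.8% of all genes, and DESeq2 called 199 genes of the table and 1 of the set. The gene it called was Cox7b2, a form of subunit 7b known from testis, which also had the smallest p with edgeR. It had 94 and 53 assigned reads in matKO, against 26 and 21 in CTR, or 72.3 and 39.3 CPM in matKO, against 15.4 and 13.2 CPM in CTR. The groups were apart, with log2 1.99 (SE 0.40, adjusted p = 0.0749). Over the alternatives the adjusted p ran from 0.00273 to 0.189. In matKO 76 and 44 of its reads were paternal and 18 and 9 maternal, against 20 and 17 paternal and 6 and 4 maternal in CTR. In oocytes Cox7b2 had 0 reads in all 4 libraries, the one gene of the set to do so. In ExE it had at most 14 reads in any library.

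Ndufaf3, an assembly factor that acts early in building complex I, was the next by p. It had 114 and 137 CPM in matKO, against 186 and 198 CPM in CTR (log2 −0.58, SE 0.15, adjusted p = 0.122), and the groups did not overlap. Ndufb5 came after it, with 9 and 5 reads in matKO, against 33 and 28 in CTR (log2 −1.76, SE 0.53, adjusted p = 0.151). In Cox7c (log2 0.54, SE 0.20, adjusted p = 0.210) the groups had 157 and 148 CPM in matKO, against 129 and 87.6 CPM in CTR. In CTR replicate 2, Cox7c had 7 maternal and 132 paternal reads, while the other morula libraries had 67 to 87 maternal reads and at most 133 paternal reads.

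The complex I subunit Ndufv1 had 102 and 94.97 CPM in matKO, against 136 and 132 CPM in CTR (log2 −0.40, SE 0.15, adjusted p = 0.214). Uqcr10 of complex III and Ndufa3 and Ndufs5 of complex I completed the 8, with log2 values of 0.24, 0.27 and 0.25. Of the 90 genes, 22 did not pass the filter on low counts in morulae and 26 did not in ExE.

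Otherwise the fitted values in morulae leaned above 0. Of 68 tested genes 53 were positive, with a median of 0.12, against −0.02 over all genes. Without CTR replicate 1 the set's median was 0.07, against 0.01 over all genes, and without CTR replicate 2 it was 0.18. All 11 tested genes of complex IV were positive, from 0.03 to 1.99, and so were 11 of 12 of complex V. No value among these passed the adjusted threshold. The groups were apart for 41 of 68 genes of the set (60.3%), against 53.1% of all genes tested.

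In ExE no gene of the set, and no gene of the table, was called by edgeR (0 of 8386, 0%). Of 64 genes of the set tested, 4 had an unadjusted p under 0.05, all lower in matKO, against 13.8% of all genes, and DESeq2 called 210 genes of the table and none of the set. Ndufa7, a complex I subunit, had 388, 361, 260 and 291 CPM in matKO, against 418 and 569 CPM in CTR (log2 −0.64, SE 0.19, adjusted p = 0.221). Ndufaf3 had 82.9, 96.2, 132 and 74.5 CPM in matKO, against 125 and 204 CPM in CTR (log2 −0.81, SE 0.27, adjusted p = 0.250). Values for Ndufa7 did not overlap, and those for Ndufaf3 did. Without CTR replicate 2, the higher control in both, the changes were −0.35 for Ndufa7 and −0.36 for Ndufaf3. Without matKO replicate 3 they were −0.55 and −1.01, with adjusted p of 0.180 and 0.0780. The remaining ones were Ndufa1 (log2 −0.29, SE 0.12) and Ndufv3 (log2 −0.26, SE 0.12). Of 64 genes 50 were negative, with a median of −0.11, against 0.004 over all genes. The set took 3.71, 3.67, 3.73 and 3.47% of counts in matKO, against 3.82 and 3.91% in CTR, and the groups did not overlap. The groups were apart for 12 of 64 genes of the set (18.8%), all lower in matKO, against 23.8% of all genes tested. Without matKO replicate 3 no gene of the set was called either, and the median was −0.12. The median was −0.06 without CTR replicate 2 or without matKO replicate 4, and −0.18 without CTR replicate 1. The 6 other lists gave no call in morulae (152 genes tested, 26 at an unadjusted p under 0.05) or ExE (148 tested, 10), and DESeq2 called none of them.

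**Figure D3:**
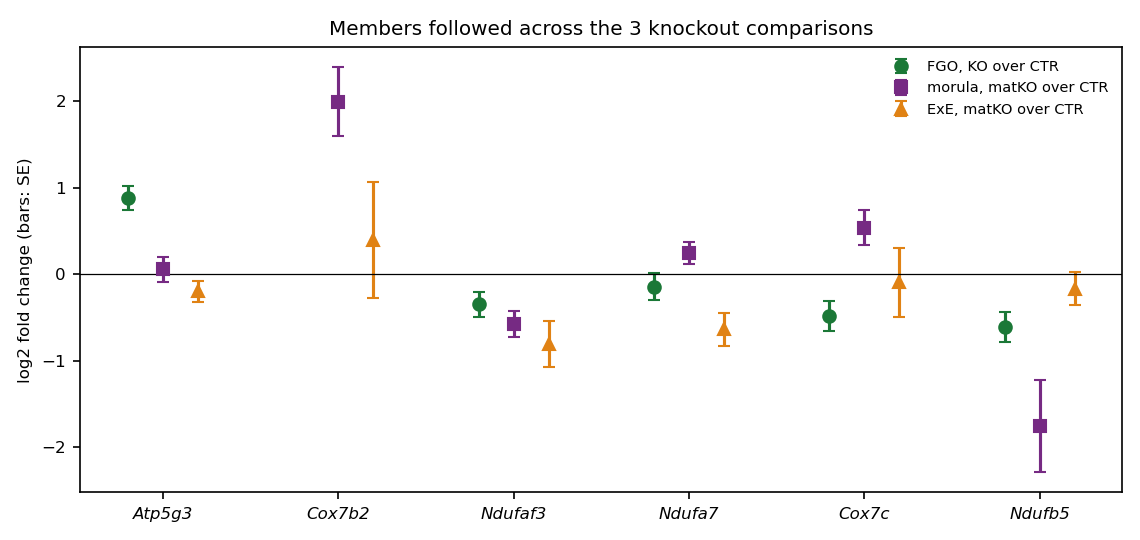
Fitted log2 fold change, with SE as bars, of 6 genes of the set in the 3 knockout comparisons, where the gene was tested. Ndufaf3 lay below 0 in all 3 (−0.35, −0.58 and −0.81), and Atp5g3 above 0 by more than its error in oocytes alone (0.88).

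Ndufaf3, singled out after its values were seen, was the one gene with an unadjusted p under 0.05 in all 3 knockout comparisons, lower each time. Its values were −0.35 in oocytes, −0.58 in morulae and −0.81 in ExE. None of the 3 passed its own adjusted threshold, and oocytes, morulae and ExE share no libraries. In oocytes it had 84.6 and 65.6 CPM in KO, against 92.1 and 85.5 CPM in CTR. Of 62 genes tested at all 3 stages, 10 had negative values at each and 2 positive ones. The same shares over all genes were not computed, so nothing about the set is drawn from these counts.

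The difference of the knockout effect between stages was tested in a fit of both stages, and no gene of the set passed. From oocytes to morulae edgeR called 386 of 14719 genes (2.62%, with 0.38% higher and 2.24% lower) and 0 of 88 of the set. An unadjusted p under 0.05 was found for 7 of the set and for 15.9% of all genes. DESeq2 called 660 genes of the table and 3 of the set. Of the 88 genes 62 were positive, with a median of 0.13, against −0.07 over all genes. Atp5g3 had the smallest p, with a difference of −0.83 (SE 0.22, adjusted p = 0.0743): its morula libraries had 128 and 144 CPM in matKO, against 129 and 140 CPM in CTR. With library totals in place of TMM factors the adjusted p was 0.0355. For Cox7c the difference was 1.01 (SE 0.29, adjusted p = 0.0903). From morulae to ExE edgeR called 38 of 11182 genes (0.34%, with 0.277% higher and 0.0626% lower) and 0 of 73 of the set. An unadjusted p under 0.05 was found for 13 of the set (2 higher, 11 lower) and for 13.2% of all genes. DESeq2 called 181 genes of the table and 0 of the set. Of the 73 genes 61 were negative, with a median of −0.27, against 0.007 over all genes. Both differences use the same morula libraries.

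Some tissue forms of complex IV subunits were detected in oocytes. Levels of different genes cannot be compared here, since no transcript lengths were used. In oocytes Cox4i1, the broadly used subunit 4, had 672 and 641 CPM in KO, against 587 and 569 CPM in CTR. Cox4i2, its lung form, had 5.82 and 2.98 CPM in KO, against 3.57 and 2.02 CPM in CTR. Neither passed the test (log2 0.09 and 0.53). Cox6a1, Cox6b1, Cox7a2, Cox7a2l, Cox7b, Cox8a and Ndufa4 had between 131 and 511 CPM in every oocyte library. Cox7a1 and Cox8b, the muscle forms of subunits 7a and 8, had at most 0.954 and 0.0759 CPM. Ndufa4l2 had 1.09 and 0.303 CPM in KO, against 1.21 and 1.59 CPM in CTR (log2 −1.12, SE 0.58, adjusted p = 0.314). Cox6b2, a testis form, had 98.6 and 131 CPM in KO, against 118.9 and 110 CPM in CTR. It also had 68.3 to 125 CPM in the 4 morula libraries and 4.59 to 11.6 CPM in the 6 ExE libraries.

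Oocyte columns count whole genes, and embryo columns only reads that could be traced to a parent. Zeros in embryos therefore depend on both expression and parental sequence differences. In oocytes 80 of the 90 genes had a mean of at least 20 CPM, in morulae 65 and in ExE 57. 12 genes had 0 reads in all 4 morula libraries and 14 in all 6 ExE libraries. Of 74 genes of the set with at least 50 CPM in oocytes, 8 had 0 reads in every embryo library, a share of the kind also found over all genes (331 of 3620, or 9.14%). Among them were Ndufa4 at 337 to 417 CPM in oocytes, Uqcrh at 489 to 567 CPM and Sdhd at 324 to 344 CPM. The zeros cannot be read as absence of the transcript.

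Zeros cannot be read as absence between morulae and ExE either, although both stages came from the same cross. How reads were assigned to a parent at each stage is not given in the sources used here. Sdhb, the iron-sulfur subunit of complex II, had 513 and 503 CPM in morula matKO, against 434 and 493 CPM in morula CTR, and 0 reads in all 6 ExE libraries. Sdhc likewise had 342 to 408 CPM in the morula libraries and 0 in ExE. Ndufs5 had 336 to 414 CPM in morulae and 1 read in 6 ExE libraries together. Over all genes, 411 of 6846 with at least 20 CPM in morulae (6.00%) had 0 reads in every ExE library, against 14 of 4976 in the reverse direction. The most abundant gene took 0.172 to 0.227% of assigned reads in morulae and 0.751 to 0.924% in ExE. The planned test of ExE CTR over morula CTR called 6735 of 9977 genes (67.5%), with 2776 higher (27.8%) and 3959 lower (39.7%). Of 71 genes of the set it called 55 higher and 10 lower. With library totals in place of TMM the table split was 1551 higher and 5422 lower, and that of the set 44 and 14. Assignable reads and expression cannot be told apart in these calls, so no stage change is drawn from them.

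**Figure D4:**
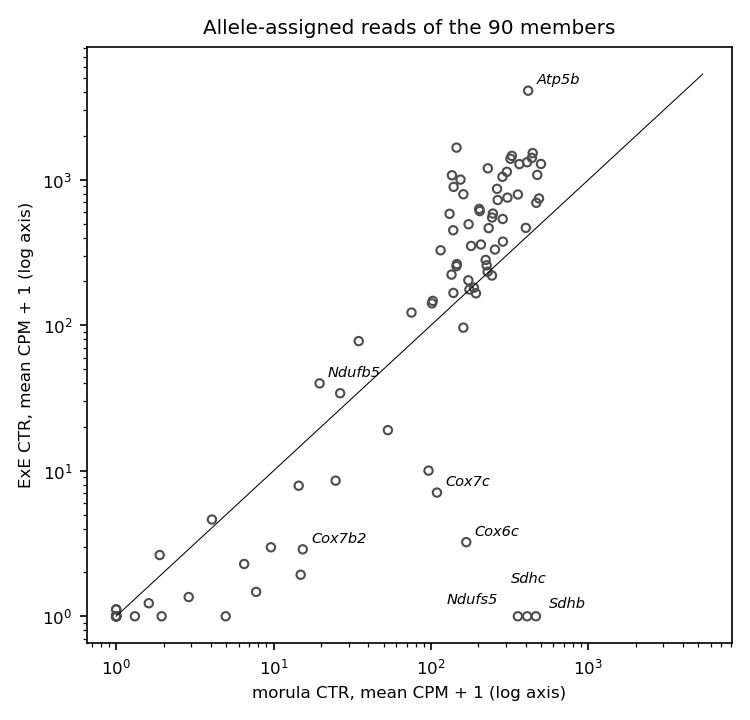
Mean CPM plus 1 of each of the 90 genes in ExE CTR (vertical) and morula CTR (horizontal), both on log axes, from allele-assigned reads; points are genes and the line marks equal values. Sdhb, Sdhc and Ndufs5 lie on the bottom edge, with at least 336 CPM in morulae and none in ExE CTR.

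The median autosomal gene was close to parental balance in all embryo libraries but ExE matKO replicate 3, while single genes ranged widely. Of 51 autosomal genes of the set with at least 50 reads in every embryo library, the median maternal share was 49.7 to 51.6% in 9 libraries. In ExE matKO replicate 3 it was 34.4%. Single genes ran from 13.6 to 99.2% in morula CTR replicate 1 and from 0.876 to 100% in ExE CTR replicate 1. Mothers and fathers differ in strain, so parent of origin and strain cannot be told apart. The tested ratio of maternal to paternal reads did not differ between matKO and CTR for any gene of the set at the adjusted threshold of edgeR. In morulae the test called 3 of 7637 genes (0.0393%) and 0 of 66 of the set, and in ExE 2 of 7113 (0.0281%, with 0.0141% higher and 0.0141% lower) and 0 of 62 of the set, with 0 genes of the set at an unadjusted p under 0.05 in either. Ndufa7 had 1238, 1168, 644 and 798 maternal and 348, 276, 317 and 190 paternal reads in ExE matKO, against 1363 and 1345 maternal and 400 and 1138 paternal reads in ExE CTR. The paternal reads of CTR replicate 2 were the ones apart. Without CTR replicate 1, Ndufa7 was called (log2 1.75, adjusted p = 1.76e-05).

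3 genes of the set lie on the X chromosome: Ndufa1 (37187588 to 37191238) and Ndufb11 (20615326 to 20617619) of the complex I membrane arm, and Cox7b (106015700 to 106022450) of complex IV. In ExE the paternal X is known to be silenced in female cells. In ExE CTR, Ndufb11 was 92.4% (95% exact interval 90.2 to 94.3) and 98.1% (96.9 to 98.9) maternal. In ExE matKO the 4 libraries fell into a high pair and a low pair: 99.5% (98.7 to 99.9) and 100% (99.2 to 100) in replicates 1 and 4, and 33.6% (30.6 to 36.7) and 44.0% (40.9 to 47.1) in replicates 2 and 3. Ndufa1 was 99.9 and 99.9% maternal in replicates 1 and 4 and 72.0 and 74.1% in replicates 2 and 3, against 94.8 and 94.9% in CTR. Cox7b had a smaller gap, with 99.96 and 99.96% in replicates 1 and 4 and 90.2 and 88.3% in replicates 2 and 3, against 99.4 and 99.3% in CTR. The whole X chromosome was split in the same libraries, at 99.9, 56.9, 61.2 and 99.8% in matKO replicates 1 to 4, against 95.8 and 96.4% in CTR. The exact intervals cover counting error only. The 2 low libraries differed on the autosomes, where replicate 3 was 35.1% maternal and replicate 2 was 51.3%. The sex of the embryos was not stated, and its part in the X shares was not tested.

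In the 2 low libraries Ndufb11 had 650 and 574 paternal reads, and its total was 245 and 277 CPM. Its total was 161 and 135 CPM in the other matKO libraries and 160 and 190 CPM in CTR. For Ndufa1 the total was not raised in the 2 low libraries, at 469 and 528 CPM. It was 597 and 517 CPM in the other matKO libraries and 602 and 657 CPM in CTR. For Cox7b the total was lower in the 2 low libraries, at 1296 and 1298 CPM. It was 1709 and 1517 CPM in the other matKO libraries and 1697 and 1625 CPM in CTR. No X-linked gene was called by edgeR in the allelic test of ExE (0 of 256). That test compared groups, and the matKO libraries were themselves split on the X chromosome. The count therefore does not show equal X shares in matKO and CTR. In morulae the whole X chromosome was 62.1 and 57.7% maternal in matKO, against 75.3 and 74.1% in CTR, and the groups were apart. Of its genes of the set, Ndufb11 was 48.4 and 46.3% maternal in matKO, against 49.8 and 49.6% in CTR. Ndufa1 was 61.2 and 60.9% in matKO, against 62.3 and 62.4% in CTR. Cox7b was 78.9 and 77.8% in matKO, against 84.5 and 80.8% in CTR.

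**Figure D5:**
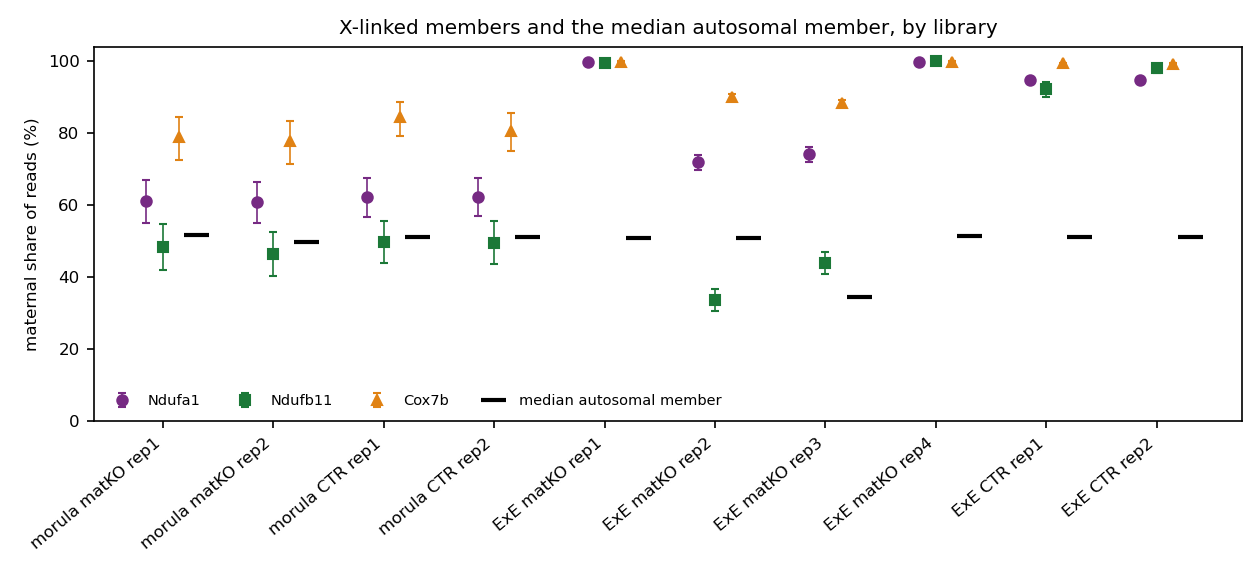
Maternal share of assigned reads of the 3 X-linked genes in each embryo library, with 95% exact intervals, and the median share of 51 autosomal genes of the set as a black dash. ExE matKO replicates 2 and 3 lie below the other ExE libraries for all 3 genes, down to 33.6% for Ndufb11, and the autosomal median of replicate 3 lies at 34.4%.

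Between ExE CTR and morula CTR the maternal share differed for 13 of 66 genes of the set, against 10.8% of all 8065 genes tested (6.77% higher, 3.98% lower). It was higher in ExE for Ndufa1, Cox7b, Ndufb11, Cox7a2, Cox5b and Atp5j2, and lower for Ndufa11, Cox7a2l, Ndufb8, Ndufb4, Ndufa6, Ndufv3 and Ndufa12. Cox7b had 7121 and 7038 maternal and 41 and 52 paternal reads in ExE CTR, against 201 and 189 maternal and 37 and 45 paternal reads in morula CTR. Cox5b had 1075 and 1191 maternal and 262 and 275 paternal reads in ExE CTR, against 100 and 90 maternal and 102 and 82 paternal reads in morula CTR. Allele use and the reads that could be assigned at each stage cannot be told apart in these shares.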

How the data were processed

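Gene counts were used as deposited, without normalization. Each FGO library has 1 column, and each morula and ExE library a maternal and a paternal column, which were summed for tests of expression. STAR 2.7.3 and RSEM 1.3.1 are named in the submitters' processing notes, with Bowtie2 2.3.5, Trim Galore 0.6.4 and mm10. Which of these made the counts, and how reads were assigned to a parent, is not given in the sources used here. Libraries came from the SMART-Seq v4 kit, per the labels' protocols, which does not mark strand, so overlapping genes and near-identical copies are uncertain. The 40 CUT&RUN samples and 4 morula RNA samples of reciprocal crosses were not analysed here.

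Groups were compared with edgeR 4.0.16 in R 4.3.3 (TMM, filterByExpr, robust quasi-likelihood F test) over the whole table, with Benjamini-Hochberg adjustment and calls under 0.05. Interaction terms tested differences between stages. Allelic fits used genes with a mean of at least 20 reads, a term for each library and offsets of autosomal allele totals, and positive values mean a shift towards the maternal allele. DESeq2 1.42.0, other scalings, filters and leave-outs were alternatives. The fits were tested on simulated data with a fixed size of change and a fixed spread. Those data do not show how the fits handle smaller changes or wider spreads. As the detection floor, 3 counts were taken, which is 0.114 to 0.151 CPM for oocyte libraries, 1.78 to 2.31 CPM for morula libraries and 0.688 to 0.883 CPM for ExE libraries. Intervals are 95% exact binomial ones; floors and intervals cover counting error only.

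The genes and lists were chosen with earlier results of these data known. Text names up to 10 called genes in each direction by smallest p, otherwise the 8 with the smallest p, plus isoform families, X-linked genes, Pcgf1 and Pcgf6. A planned ranking of oocyte levels per kilobase was not made, for want of transcript lengths. Symbols were matched to the GRCm38.p6 annotation, 23975 by symbol and 81 by synonym, and 21 were unmatched. Promoter windows are from RefSeq, with 73 of the 90 genes matched. The motifs were chosen after the results were seen. A further motif, labelled NRF1, was searched too, and found in 6.41% of the windows of the set (5 windows) and 0.782% of all windows. Mitochondrially encoded subunits could not be analysed, since none of the 13 symbols listed for them was a row of the count table. The scaling without TMM factors was added after the data were seen. The planned ExE over morula test assumed comparable assignment of reads, which the zeros in ExE go against.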

Additional observations from a re-analysis of the deposited data

Results flagged for a closer look

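Among the 4 ExE matKO libraries, replicate 3 lay far from the other 3 in 4 of 36 values examined. Chance flags about 1 in 20 independent values, but the maternal shares flagged here are not independent, so that rate is no yardstick. Its maternal share of autosomal reads was 35.1%, while the other 3 matKO libraries had 51.2 to 51.5%, against 51.4 and 51.4% in CTR. Ndufs6 was 39.6% maternal in it (95% exact interval 37.5 to 41.6), while the other 3 had 56.2 to 57.4%, against 55.2 and 53.4% in CTR. Ndufc2 was 31.9% maternal in it (29.6 to 34.3), while the other 3 had 48.4 to 51.7%, against 52.8 and 52.0% in CTR. Both genes moved with the autosomes of that library. Atp5d, a subunit of the complex V stalk, had 699.6 CPM in it, while the other 3 had 639 to 643 CPM, against 769 and 680 CPM in CTR. The source of the library's lower maternal share was not tested.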

How the results depend on the processing

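With the edgeR fit described, the called genes of the set numbered 2 in oocytes and 0 in morulae, in ExE and in both differences between stages. Without a filter on low counts they numbered 5 in oocytes, 2 in morulae, 1 for the effect in morulae minus FGO and 1 for ExE minus morulae. In the same order, that setting called 1630, 489, 791 and 238 genes of the table. DESeq2 gave 1 in morulae and 3 for morulae minus FGO, beside 199 and 660 genes of the table. Library totals in place of TMM factors, an alternative chosen after seeing the data, gave 1 for morulae minus FGO, beside 472 genes of the table. Leaving out 1 library at a time gave 2 to 11 in oocytes, 0 to 1 in morulae, 0 to 2 for morulae minus FGO and 0 to 1 for the maternal share in ExE. The counts over all genes, of 972, 12 and 0, ran from 767 to 2029 in oocytes, 7 to 524 in morulae and 0 to 6 in ExE under these leave-outs. The highest came without KO replicate 2, matKO replicate 2 and matKO replicate 3 of each stage. Where a group was left with 1 library, it was assumed to vary like the others.

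A fit with the replicate number as a block called 6 genes of the set in oocytes, 1 in morulae (Cox7b2), 1 in ExE (Ndufaf3, log2 −0.87) and 2 for morulae minus FGO. Over all genes it called 2021, 310, 968 and 668 in the same order. Deviations of same-numbered libraries correlated at 0.32 in oocytes, 0.23 in morulae and 0.32 and 0.21 in ExE. With 2 shared numbers and no label that ties them, the libraries are known to share only a number, and the main fits assume no pairing.

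Apart from leave-outs, 25 values changed sign, and the cause was not tested. Library totals gave 0.00603 for Cox6b2, 0.00837 for Cox7a1 and 0.052 for Atp5g1 in oocytes, 0.00388 for Atp5g1 in ExE, −0.16 for Cox7a2 in ExE over morulae, −0.013 for Cox4i1 and −0.058 for Cox7a2l in morulae minus FGO, and 0.035 for Cox7a2l in ExE minus morulae. Paternal counts gave −0.029 for Atp5g3 in morulae. In ExE they gave 0.85 for Ndufa1, 2.46 for Cox7b and 0.023 for Cox7a2. In ExE over morulae they gave −0.59 for Cox7b, −1.26 for Cox7a2 and 0.85 for Cox7a2l. In morulae minus FGO they gave 0.25 for Cox6b1 and 1.41 for Ndufa4l2, and in ExE minus morulae 0.63 for Ndufa1 and 2.04 for Cox7b. Maternal counts gave −0.051 for Cox7a2l and 0.11 for Atp5g1 in ExE. The replicate block gave 0.084 for Atp5g1 in ExE and 0.14 for Ndufa4l2 in morulae minus FGO, where RLE factors gave 0.10 and DESeq2 0.11.

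Leave-outs changed the sign of 26 values, which belong to 18 results. In oocytes the ranges were −0.42 to 0.20 for Cox6b2, −0.39 to 0.095 for Cox7b, −0.50 to 0.000433 for Ndufa4, −0.52 to 0.18 for Cox7a1 and −0.15 to 0.026 for Atp5g1. In morulae they were −0.025 to 0.14 for Atp5g3 and −0.45 to 0.44 for Cox6b2. In ExE they were −0.28 to 1.75 for Cox7b2 and −0.19 to 0.15 for Atp5g1, and in ExE over morulae −0.17 to 0.018 for Cox7a2l. In morulae minus FGO they were −0.36 to 0.51 for Cox6b2, −4.30 to 5.36 for Ndufa4l2, −6.18 to 4.49 for Cox6b1 and −7.86 to 1.83 for Cox8c. In ExE minus morulae they were −0.027 to 0.74 for Atp5g2 and −0.54 to 0.32 for Cox4i2. For the maternal share in ExE they were −1.04 to 1.92 for Ndufa1 and −2.52 to 0.24 for Cox7b.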

Other observations

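Uqcrb, a complex III subunit, varied between ExE libraries in a way its group did not follow. It had 115, 132, 86.4 and 23.0 CPM in matKO, against 120 and 33.5 CPM in CTR. Maternal reads were 414, 456, 242 and 36 in matKO, against 453 and 77 in CTR, while paternal reads were 56, 73, 78 and 42 in matKO, against 54 and 69 in CTR. The swing is thus in the maternal reads. Ndufa13 was almost wholly maternal in every embryo library, with 95 to 126 maternal and 0 to 2 paternal reads in the morula libraries. In ExE it had 319 to 525 maternal and 0 to 3 paternal reads. Ndufb4 was mostly paternal, with 13 to 24 maternal and 107 to 152 paternal reads in morulae, and 5 to 22 maternal and 370 to 673 paternal reads in ExE. The part that assignable positions play in these shares was not tested.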
